A study of Mus musculus with 16 samples.

Results

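The 58 odorant receptor genes Olfr1417 to Olfr1505 were examined in sorted cells of mouse olfactory mucosa. They were chosen by symbol alone, as every numbered Olfr gene from the first to the last of these names, and made up 58 of the 19505 genes measured and 58 of the 1080 genes named Olfr with a number. All 58 lie on mouse chromosome 19, and each was measured by 1 array feature. The animals were 24 C57BL/6 mice of both sexes, 7 to 12 weeks old, that carried the S100a5-tauGFP reporter, a green fluorescent protein driven by the activity-dependent S100a5 gene of olfactory sensory neurons. Every mouse, control or treated, carried the reporter and spent 40 h in a chamber of clean air flowing at 3.1 L/min. After 26 h the vehicle mice received 10 s pulses of filtered air every 20 min, and the odor mice received pulses of whiskey lactone, an oak-derived aroma compound, on the same schedule. Cells of 3 mice were combined in each of 8 pools, 4 per treatment, and each pool was sorted by fluorescence into 2 fractions, which gave 16 arrays in 4 groups of 4. The values are log2 signals.

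The sample titles and the cell type field name the sorted fraction in opposite ways on all 16 arrays. Fractions are named here by title, and a fraction difference is the signal of the array titled GFP+ minus that of the array titled GFP- from the same pool. Reading the fractions by the cell type field would turn the sign of every fraction difference and of its difference between treatments. In all 8 pools the S100a5 signal was lower in the array titled GFP+ (log2 difference -1.23 ± 0.09 in vehicle and -1.34 ± 0.09 in odor pools, SE, n = 4 each, limma, adjusted p = 4.78e-07 and 2.07e-07). The 4 markers of mature sensory neurons (Omp, Cnga2, Adcy3 and Gnal) were far above background on every array, with array means of 17.38 to 17.63 in the odor arrays titled GFP+ and of 17.64 to 17.75 in the odor arrays titled GFP-. All 6 neutrophil markers were higher in the arrays titled GFP+ in both treatments (median differences of 8.79 and 8.76). Their array means were 14.99 to 15.97 in vehicle arrays titled GFP+ and 6.35 to 7.66 in those titled GFP-, where 1 of the 6 stayed at or below background on every array. The 3 immature neuron markers (Gap43, Gng8 and Dpysl3) were also all higher in both treatments (median differences of 2.99 and 3.19), with vehicle array means of 10.53 to 10.75 against 7.18 to 7.75. So were all 4 sustentacular markers (1.82 and 2.09), all 3 macrophage markers measured (3.51 and 3.23), all 3 microvillar markers (3.75 and 3.50) and the proliferation gene Mki67 (5.61 and 6.70). The part of these other cells in the receptor differences was not tested. Background is the median signal of an array's negative control features, 4.98 to 5.59 over the 16 arrays.

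Odorant receptors are G protein-coupled receptors in the cilia of olfactory sensory neurons. A mature neuron transcribes a single receptor gene from a single allele, so a receptor transcript marks the neurons that chose it, and a sort by activity can part receptors from each other. Their genes stand in clusters of related copies along a chromosome and usually have an uninterrupted coding sequence. In sorted bulk cells, fewer neurons with a receptor and less of its RNA in each neuron cannot be told apart.

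In the RefSeq gene order the members are given here in 3 runs set by number, Olfr1417 to Olfr1441 (16 genes), the pair Olfr1442 and Olfr1443, and Olfr1444 to Olfr1505 (40 genes). The runs adjoin, as Olfr1442 follows Olfr1441 and Olfr1444 follows Olfr1443 among the numbered Olfr genes of the array. Receptors of other numbers stand only on both sides of Olfr1431, inside the first run. RefSeq sequence of build GRCm38.p6 around the annotated gene start was at hand for 55 members, and in 47 of them the first bases are the start codon ATG. The 50 bases from that start were compared among these 47. The median pair had 17 equal bases, and 13 of 1081 pairs had at least 45. From those with at least 45, 4 pairs are printed. Olfr1463 with Olfr1466, and Olfr1502 with Olfr1505, show how alike members can be whose fraction differences were unlike. Olfr1445 and Olfr1448 were both lower in arrays titled GFP+, and the signals of Olfr1446 and Olfr1447 may not be separable. Capitals mark the bases that differ within a pair.
Olfr1446 (chr19:12890526-12890575, minus strand): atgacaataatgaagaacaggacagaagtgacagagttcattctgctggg
Olfr1447 (chr19:12901729-12901778, minus strand): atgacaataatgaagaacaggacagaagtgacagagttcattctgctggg
Olfr1445 (chr19:12883883-12883932, plus strand): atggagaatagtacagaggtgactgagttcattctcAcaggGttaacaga
Olfr1448 (chr19:12920258-12920307, minus strand): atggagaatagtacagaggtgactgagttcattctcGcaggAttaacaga
Olfr1463 (chr19:13234252-13234301, plus strand): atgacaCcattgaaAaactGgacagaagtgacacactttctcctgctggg
Olfr1466 (chr19:13341760-13341809, plus strand): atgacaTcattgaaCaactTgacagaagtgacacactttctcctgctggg
Olfr1502 (chr19:13861795-13861844, plus strand): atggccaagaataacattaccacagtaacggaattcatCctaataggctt
Olfr1505 (chr19:13919022-13919071, plus strand): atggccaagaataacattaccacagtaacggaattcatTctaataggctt

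Olfr1446 and Olfr1447 have all 50 bases in common, and 92.7% of 247 aligned bases upstream of the start. Which of the array's probes tell near-identical copies apart was not tested, so the values of such pairs are uncertain as values of single genes.

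The first comparison asked how the sort parted these receptors without odor. In the vehicle pools the members split evenly. Of 58, 21 were higher and 22 were lower in the arrays titled GFP+, and 15 did not pass (limma, Benjamini-Hochberg adjusted p under 0.05 over all genes). Over all 19505 genes 26.0% passed, 12.3% higher and 13.6% lower. The members' median difference was 0.05, beside -0.14 over all genes. Among the 1022 other Olfr genes 237 were higher and 493 lower, with a median of -0.63. The differences of the members ran from -4.39 (Olfr1463) to 7.80 (Olfr1447). With a fitted difference of at least 8-fold, 13 higher and 7 lower members passed, beside 2.68% and 0.420% of all genes. Among the 1022 other Olfr genes 108 higher and 73 lower did so. With each signal below its array's background raised to it, the counts of members were 11 and 7.

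After whiskey lactone the members again split evenly. Of the 58 members, 23 were higher and 23 lower there (27.5% of all genes passed, 12.8% higher and 14.7% lower), with a median of -0.14, beside -0.15 over all genes and -0.68 over the other Olfr genes. Of the 58, 43 passed in both treatments, 21 higher in both and 22 lower in both. Olfr1423, Olfr1431 and Olfr1502 passed after odor alone, and 12 members passed in neither. Of these 12, Olfr1441, Olfr1453, Olfr1457, Olfr1462 and Olfr1465 lay at or below background on all 16 arrays. Over the pools, 42 members had 1 sign in all 8 pools, 21 each way, beside 29.1% of all genes (12.5% higher, 16.5% lower). In 19 members the 8 arrays titled GFP+ all lay above the 8 titled GFP-, and in 17 all below. The fractions did not overlap in 12.7% of all genes (8.31% higher, 4.36% lower). Among the 1022 other Olfr genes the arrays titled GFP+ lay all above in 173 and all below in 355. The vehicle and odor differences, which come from different pools, had a Pearson correlation of 0.984 (Spearman 0.983) over the 58 members, given as a description: the points share array features and a sort.

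**Figure D1:**
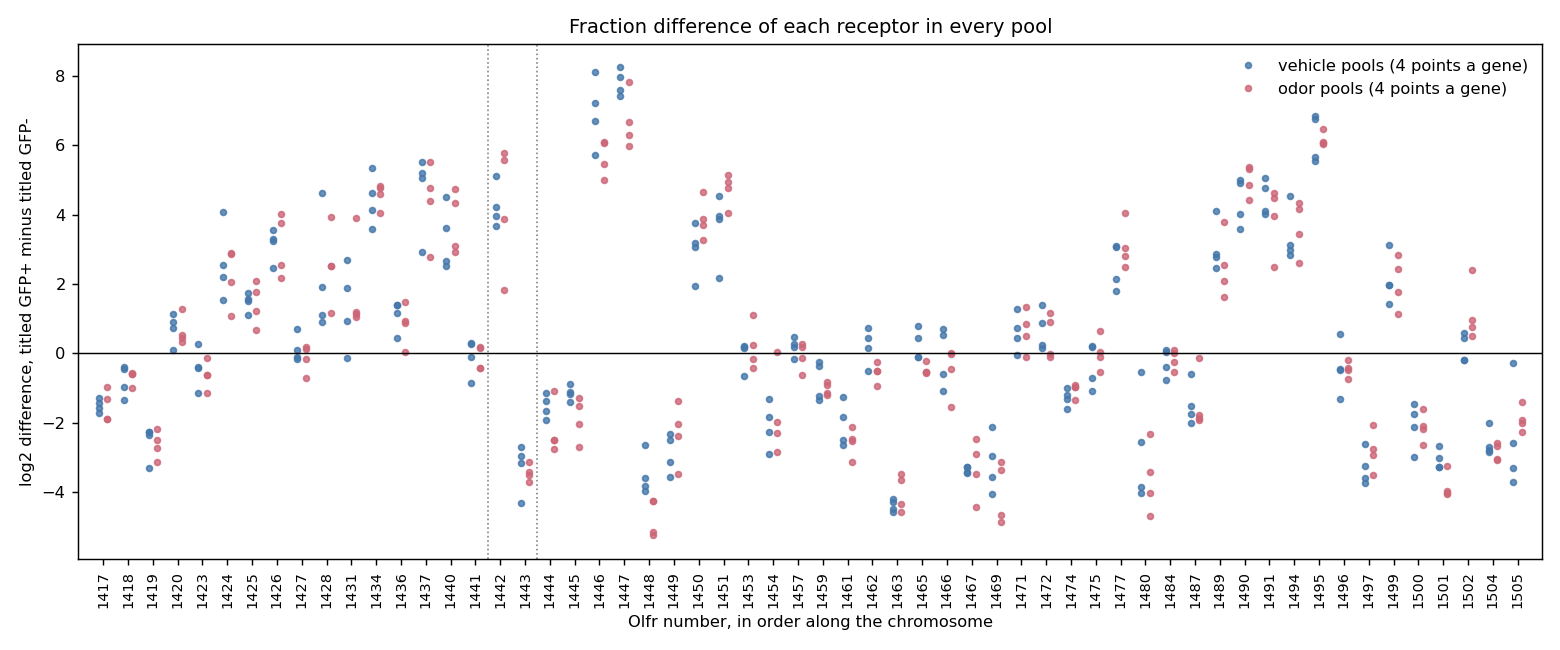
Fraction difference (log2, titled GFP+ minus titled GFP-, vertical axis) of each of the 58 receptors in every pool, in order along chromosome 19, with blue points for the 4 vehicle pools and red points for the 4 odor pools of a gene and dotted lines between the 3 runs. Receptors far above and far below 0 stand side by side, and 42 of the 58 have all 8 points on one side of 0.

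The 16 receptors of the first run, Olfr1417 to Olfr1441, were mostly higher in the arrays titled GFP+. In it, 9 were higher and 3 lower in vehicle pools (median 1.22), and 10 were higher and 4 lower in odor pools (median 1.13). Among the 40 of the last run, Olfr1444 to Olfr1505, 11 were higher and 18 lower in vehicle (median -0.31), and 12 were higher and 18 lower after odor (median -0.48). The difference between the runs was not tested.

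Olfr1447 had the largest difference of the members. Its vehicle signals were 14.01, 12.90, 13.26 and 14.30 in arrays titled GFP+ and 6.05, 5.48, 5.66 and 6.06 in those titled GFP-. After odor they were 13.54, 13.24, 12.61 and 14.23 against 5.72, 7.27, 5.93 and 7.95. The fractions stood far apart in every pool, and the odor arrays titled GFP- spread more widely than the vehicle arrays. The fold was 223 in vehicle (7.80 ± 0.24, SE, n = 4, limma, adjusted p = 1.09e-10) and 103 after odor (6.69 ± 0.24, adjusted p = 3.62e-10). The vehicle array titled GFP- of pool 2 lay below background.

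Its neighbour and near copy Olfr1446 followed it. The signals were 11.48, 11.77, 10.75 and 11.62 in vehicle arrays titled GFP+ and 4.79, 3.65, 5.05 and 4.40 in those titled GFP-, all 4 of the latter at or below background. Where a whole group is at or below background, its true level is only bounded, so a fold is given as at least the bright group's mean over the larger of each dim array's control median and own signal. Olfr1446 was at least 59.4-fold higher in vehicle (fitted difference 6.93 ± 0.31, SE, n = 4, limma, adjusted p = 2.83e-09). After odor its signals were 11.80, 11.54, 9.92 and 10.75 against 5.74, 6.09, 3.82 and 5.75, with 3 of the 4 dim arrays above background, and the fold was 39.9 with the 1 remaining dim signal raised to background (fitted difference 5.65 ± 0.31, adjusted p = 1.85e-08). The fractions of this gene did not overlap in either treatment.

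Olfr1448, the next gene on, lay on the other side. It read 7.95, 8.09, 8.81 and 7.88 in vehicle arrays titled GFP+ and 11.79, 12.06, 11.44 and 11.48 in those titled GFP-. After odor it read 6.87, 6.78, 6.64 and 7.50 against 11.12, 12.02, 11.81 and 11.76. Every array titled GFP+ was lower than every array titled GFP-, and in the arrays titled GFP+ all 4 odor signals lay below all 4 vehicle signals. The level in arrays titled GFP+ was 11.4-fold lower in vehicle (-3.51 ± 0.23, SE, n = 4, limma, adjusted p = 1.07e-07) and 26.6-fold lower after odor (-4.73 ± 0.23, adjusted p = 5.83e-09). The differences of Olfr1447 and Olfr1448, adjacent in the order of genes, lay 11.31 apart in vehicle and 11.42 apart after odor, the widest gap between adjacent members in both treatments.

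The run around them was mixed. In both treatments Olfr1444, Olfr1445 and Olfr1449 were on the low side in arrays titled GFP+, and Olfr1450 and Olfr1451 were on the high side. Olfr1449 differed by -2.89 in vehicle and -2.32 after odor. Olfr1450 read 8.20, 7.81, 8.56 and 6.48 against 5.04, 4.76, 4.82 and 4.55 in vehicle, and 7.88, 7.56, 8.06 and 8.23 against 4.61, 3.85, 3.42 and 4.37 after odor. All 8 of its arrays titled GFP- were at or below background, so its level was at least 4.77-fold higher in vehicle and at least 6.26-fold higher after odor (limma, adjusted p = 3.57e-06 and 2.81e-07). Olfr1451 read 10.32, 8.85, 9.84 and 9.94 against 5.79, 6.67, 5.97 and 5.97 in vehicle, and 8.73, 10.40, 9.80 and 10.51 against 4.69, 5.27, 4.85 and 5.75 after odor. Its fold was 12.4 in vehicle. After odor, where 1 of the 4 dim arrays was above background, the log2 difference was 4.46 with the others raised to background.

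**Figure D2:**
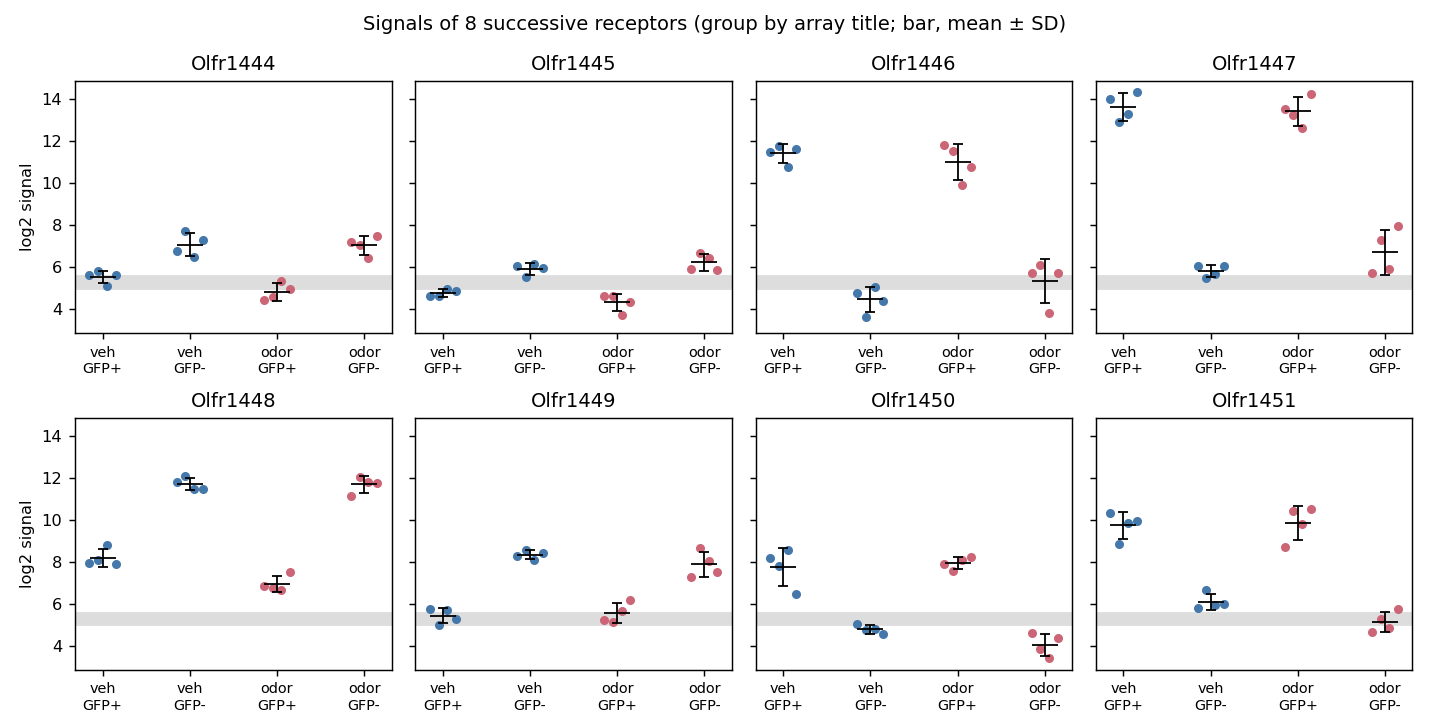
Log2 signal (vertical axis) of Olfr1444 to Olfr1451, 8 successive receptors, in the 4 groups, with a point per array, bars for the mean ± SD of 4 arrays and a grey band for the range of the negative control medians, 4.98 to 5.59. Olfr1446 and Olfr1447 are high in arrays titled GFP+ and near the band in those titled GFP-, and Olfr1448 shows the reverse order.

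Several other members with large positive differences lay in the first run and in the stretch Olfr1489 to Olfr1495. Olfr1495 read 11.56, 11.56, 11.37 and 11.10 in vehicle arrays titled GFP+ against 6.03, 4.80, 4.52 and 5.45, and 11.40, 10.89, 11.06 and 10.74 against 4.95, 4.83, 5.04 and 4.66 after odor. Its dim arrays were at or below background in 3 of 4 vehicle pools and in all 4 odor pools. With dim signals raised to background the fold was 53.3 in vehicle (fitted difference 6.20 ± 0.22, SE, n = 4, limma, adjusted p = 3.94e-10), and after odor it was at least 53.3 (fitted 6.15 ± 0.22, adjusted p = 3.81e-10). Olfr1490 (4.37 and 4.99 in vehicle and odor), Olfr1491 (4.48 and 3.88) and Olfr1494 (3.37 and 3.63) were higher too. Olfr1490 and Olfr1491 lay at or below background on all 8 arrays titled GFP-, so that Olfr1490 was at least 8.68-fold and 13.4-fold higher, and Olfr1491 at least 5.37-fold and 4.58-fold. Olfr1489, next to them, differed by 3.06 and 2.51. Olfr1496, next to Olfr1495 on the other side, differed by -0.43 and -0.46 and passed in neither treatment. Outside these stretches Olfr1477 differed by 2.52 and 3.09 and Olfr1499 by 2.12 and 2.04, the latter only by 0.64 and 0.89 with signals raised to background.

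In the first run Olfr1434 and Olfr1437 had the largest differences. Olfr1434 read 9.10, 9.04, 9.09 and 8.81 in vehicle arrays titled GFP+ against 4.97, 5.46, 4.45 and 3.46 (at least 11.3-fold, fitted 4.42 ± 0.25, SE, n = 4, limma, adjusted p = 3.26e-08). After odor it read 10.20, 9.30, 9.21 and 9.09 against 5.37, 4.55, 5.17 and 4.50 (4.55 ± 0.25, adjusted p = 2.29e-08). Its arrays titled GFP- were at or below background in 7 of 8 pools. Olfr1437 read 10.74, 10.68, 10.88 and 9.74 against 7.83, 5.63, 5.69 and 4.24 in vehicle (a log2 difference of 4.34 with dim signals raised to background), and 10.40, 10.50, 10.65 and 9.92 against 7.63, 5.75, 6.27 and 4.41 after odor (4.13). Pool 1 of each treatment was highest and pool 4 lowest in its arrays titled GFP-, yet no array titled GFP- reached the level of an array titled GFP+. Olfr1436, between them, differed by 1.10 and 0.83, and Olfr1440, after Olfr1437, by 3.32 and 3.76, all 4 of these values past the threshold. With signals raised to background Olfr1436 differed by 0.47 in vehicle and no longer passed there (adjusted p = 0.0630). Olfr1431, before Olfr1434, differed by 1.35 in vehicle, which did not pass, and by 1.81 after odor, which passed.

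The middle pair, Olfr1442 and Olfr1443, pointed opposite ways. Olfr1442 read 8.50, 8.93, 8.94 and 8.10 in vehicle arrays titled GFP+ against 3.39, 4.70, 4.97 and 4.42, all at or below background (at least 8.61-fold). After odor it read 6.65, 8.90, 9.55 and 10.25 against 4.81, 5.02, 3.77 and 4.66 (at least 11.7-fold), with the array titled GFP+ of pool 1 well below the other 3. Olfr1443 read 7.53, 7.00, 7.32 and 5.93 against 10.22, 10.16, 10.29 and 10.25 in vehicle and 6.34, 6.83, 6.91 and 6.70 against 9.77, 9.96, 10.61 and 10.21 after odor. It was thus 9.74-fold and 10.9-fold lower in arrays titled GFP+ (-3.28 and -3.44, both ± 0.22 SE, n = 4, limma, adjusted p = 1.66e-07 and 1.01e-07), and its fractions did not overlap. Olfr1441, on the other side of Olfr1442, was at or below background on all 16 arrays.

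Among the receptors on the low side, Olfr1463 had the largest vehicle difference. It read 7.44, 7.68, 7.73 and 7.97 in vehicle arrays titled GFP+ against 11.65, 12.18, 12.03 and 12.54, and 7.98, 9.50, 8.19 and 8.74 against 12.55, 12.99, 12.54 and 12.40 after odor. It was 21.0-fold lower in vehicle and 16.2-fold lower after odor (-4.39 and -4.02, both ± 0.17 SE, n = 4, limma, adjusted p = 7.40e-10 and 1.68e-09). Olfr1467 read 8.95, 9.19, 8.72 and 8.95 against 12.41, 12.47, 12.01 and 12.38 in vehicle (10.3-fold lower) and was 10.1-fold lower after odor. The fractions of both genes did not overlap. The others named on this side were Olfr1469 (-3.18 in vehicle and -4.01 after odor), Olfr1480 (-2.75 and -3.61), Olfr1497 (-3.30 and -2.81), Olfr1501 (-3.06 and -3.83), Olfr1504 (-2.58 and -2.84) and Olfr1419 (-2.55 and -2.64), all past the threshold in both treatments. Olfr1501 read 7.42, 8.09, 7.33 and 7.94 against 10.71, 11.10, 10.61 and 10.60 in vehicle, and 6.45, 7.21, 6.83 and 7.21 against 10.41, 11.24, 10.90 and 10.47 after odor. Between the low receptors stood members that passed in neither treatment, such as Olfr1462, Olfr1465 and Olfr1466 beside Olfr1463 and Olfr1467.

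Some receptors alike in their coding start lay far apart in the sort. Olfr1463 and Olfr1466, equal at 47 of 50 bases, differed between fractions by -4.39 and -0.12 in vehicle and by -4.02 and -0.50 after odor. Olfr1502 and Olfr1505, equal at 49, differed by 0.16 and -2.47 in vehicle and by 1.15 and -1.90 after odor. Olfr1471 and Olfr1474, also equal at 49, differed by 0.60 and -1.29 in vehicle. Olfr1445 and Olfr1448, equal at 48, were both lower, at -1.15 and -3.51, and so were Olfr1501 and Olfr1504, at 49, at -3.06 and -2.58. Olfr1445 and Olfr1504 were above background on 0 of 4 vehicle arrays titled GFP+, so their distance from the other gene of the pair is not known. Olfr1446 and Olfr1447 had fitted differences of 6.93 and 7.80, the former with a dim group wholly at or below background. These pairs were set side by side as a description, without a test of likeness.

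Adjacent receptors lay on the same side of the sort in some pairs and on opposite sides in others. In 29 of 55 neighbouring member pairs both genes passed in vehicle, 20 in the same direction and 9 in opposite directions (69.0% the same, beside 67.3% of 520 pairs among the other Olfr genes). After odor 33 pairs passed, 20 in the same direction (60.6%, beside 69.7% of 522). The median gap between neighbours was 2.27 in vehicle and 2.48 after odor, beside 1.62 and 1.60 among the other Olfr genes, a difference that was not tested.

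**Figure D3:**
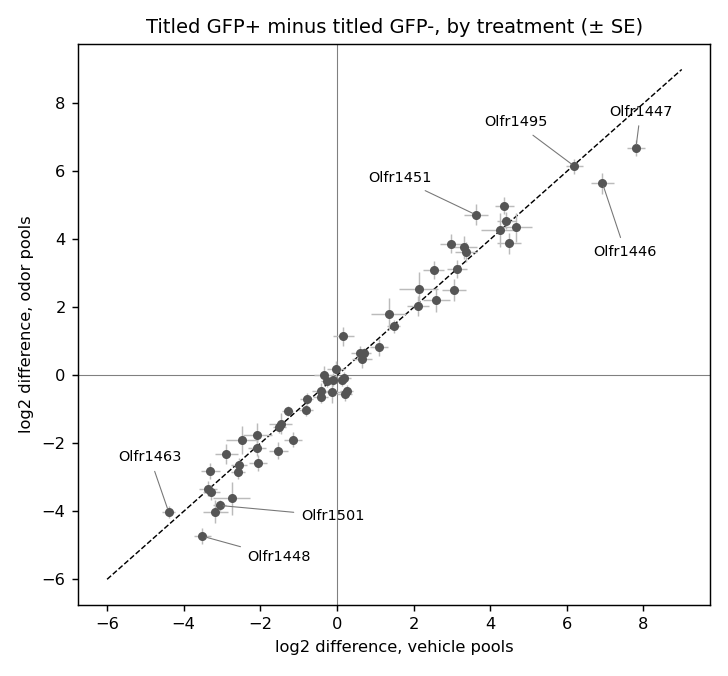
Fraction difference of each of the 58 receptors in vehicle pools (horizontal axis, log2) and in odor pools (vertical axis, log2), each with its SE and n = 4 pools, the dashed line marking equal values. The points follow the line from Olfr1463 and Olfr1448 at the lower left to Olfr1447 at 7.80 and 6.69, and Olfr1446, Olfr1447, Olfr1448 and Olfr1501 lie below it.

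The central question of the design was whether whiskey lactone moved a receptor from one fraction to the other. No member passed in the test of the difference between the odor and vehicle fraction differences (limma, adjusted p under 0.05), and 1 of 19505 genes, which is no member, did (0.00513%). Olfr937, a reference gene outside the members, did not pass. Its fraction differences ran from -4.44 to -2.80 in odor pools and from -1.39 to 0.48 in vehicle pools. The lack of a pass thus does not show that a receptor stayed in place. At an unadjusted p under 0.05 there were 10 of the 58 members (17.2%), 3 with a higher and 7 with a lower fraction difference after odor, beside 3.27% of all genes and 7.05% of the other Olfr genes. All 10 belong to the run Olfr1444 to Olfr1505, and 6 of the 10 to the 8 successive genes Olfr1444 to Olfr1451, a stretch that was singled out after its values were seen. Olfr1462 and Olfr1465, of these 10, were at or below background on all 16 arrays. The count was 6 without vehicle pool 2 and 5 in a fit without the pool. With each signal below its array's background raised to it, the count was 5, of which 4 (Olfr1447, Olfr1448, Olfr1501 and Olfr1502) were among the 10 and 2 lay in Olfr1444 to Olfr1451.

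Olfr1448 had the smallest p of the members. Its fraction difference was -3.51 in vehicle and -4.73 after odor, a difference of -1.22 ± 0.32 (SE, n = 4 pools per treatment, limma, unadjusted p = 0.00243, adjusted p = 0.999). The values of Olfr1446 and Olfr1447, on the high side of the sort, were -1.28 ± 0.44 and -1.12 ± 0.34 (SE, limma, adjusted p = 0.999 for both). For Olfr1450 and Olfr1451 the value was positive, 0.90 ± 0.40 and 1.08 ± 0.44, and for Olfr1445 it was -0.74 ± 0.32. Several of these sizes rest on signals at or below background. With signals raised to background Olfr1448 and Olfr1447 stood at -1.22 ± 0.31 and -1.11 ± 0.33, and Olfr1446 at -0.57 ± 0.33. Olfr1450, Olfr1451 and Olfr1445 then stood at 0.39 ± 0.39, 0.82 ± 0.48 and -0.48 ± 0.24, with unadjusted p over 0.05. Olfr1444 and Olfr1449 had values of -0.69 ± 0.37 and 0.58 ± 0.42, with unadjusted p over 0.05. Farther along, Olfr1501 (-0.77 ± 0.24), Olfr1465 (-0.72 ± 0.25), Olfr1462 (-0.75 ± 0.29) and Olfr1502 (0.99 ± 0.39) made up the 10. The neighbours of Olfr1501 and Olfr1502 had values of -0.05 ± 0.32 (Olfr1500) and -0.26 ± 0.28 (Olfr1504).

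**Figure D4:**
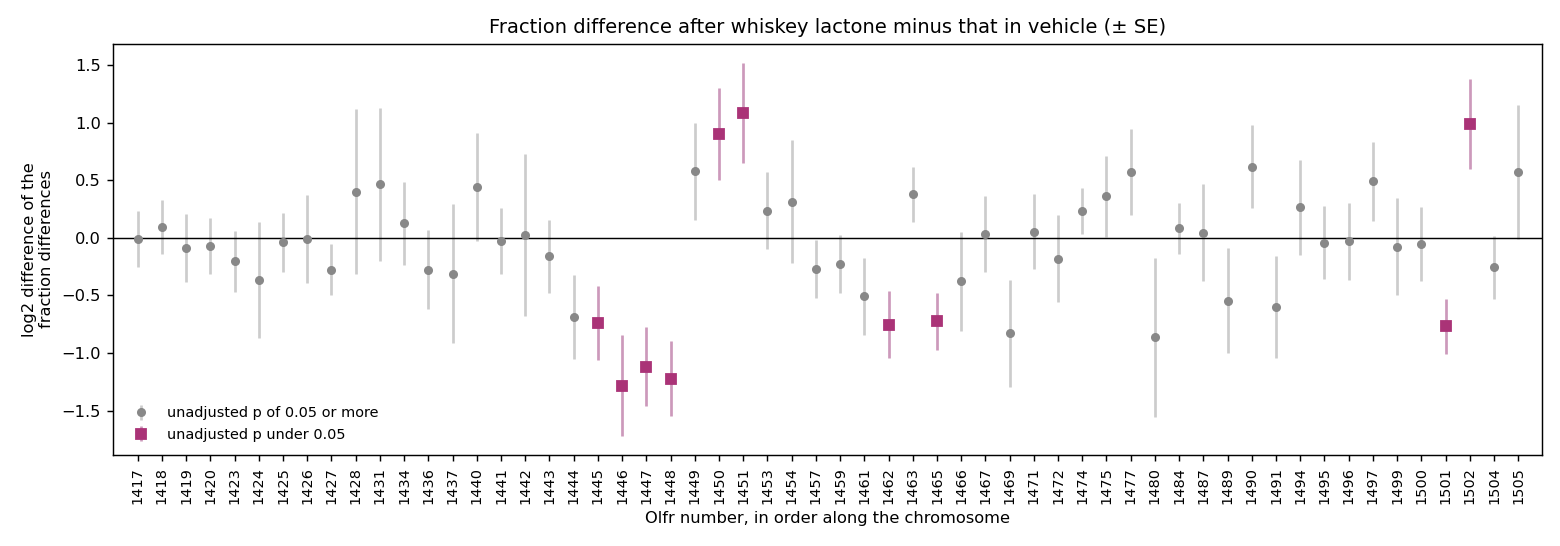
Fraction difference after whiskey lactone minus that in vehicle (vertical axis, log2, ± SE) of each receptor in order along chromosome 19, with purple squares for the 10 receptors at an unadjusted p under 0.05 and grey circles for the other 48. The values are fitted to the signals as deposited, several of them at or below background. Of the 10 squares 6 lie in the stretch Olfr1445 to Olfr1451, and no receptor passed after adjustment over all genes.

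Within the arrays titled GFP+, odor and vehicle pools were compared directly. No member passed (limma, adjusted p under 0.05), beside 0.00513% of all genes. Of the 58 members 7 had an unadjusted p under 0.05 (12.1%), beside 4.88% of all genes and 10.5% of the other Olfr genes. Olfr1448 had an odor minus vehicle value of -1.23 ± 0.25 (SE, n = 4 per treatment, limma, unadjusted p = 8.45e-05, adjusted p = 0.275), and its 4 odor signals, 6.64 to 7.50, lay below the 4 vehicle signals, 7.88 to 8.81. Olfr1501 had a value of -0.77 ± 0.22 (adjusted p = 0.801), with odor signals of 6.45 to 7.21 below vehicle signals of 7.33 to 8.09. Olfr1463 had a value of 0.90 ± 0.25 (adjusted p = 0.801) with odor signals of 7.98 to 9.50 and vehicle signals of 7.44 to 7.97, and Olfr1444 one of -0.71 ± 0.29. Olfr1465, -0.55 ± 0.18, was at or below background on every array.

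Within the arrays titled GFP- no member passed either, and neither did any of the 19505 genes (limma, 0.00% at adjusted p under 0.05). At an unadjusted p under 0.05 there were 6 members (10.3%, beside 5.88% of all genes and 8.81% of the other Olfr genes). The smallest p belonged to Olfr1451 (-0.96 ± 0.37, SE, n = 4 per treatment, limma, adjusted p = 0.775), with odor signals of 4.69 to 5.75 and vehicle signals of 5.79 to 6.67. Olfr1489 (0.90 ± 0.34, adjusted p = 0.775), Olfr1436 (0.58 ± 0.26), Olfr1475 (-0.79 ± 0.35), Olfr1447 (0.91 ± 0.41) and Olfr1450 (-0.73 ± 0.34) followed. Olfr1450 was above background on 0 of 8 and Olfr1475 on 1 of 8 of these arrays. With signals raised to background the count was 9, with 3 of the 6 among them (Olfr1447, Olfr1475 and Olfr1489), and Olfr1451 stood at -0.70. The 9 also hold Olfr1441, Olfr1453, Olfr1457, Olfr1462 and Olfr1465, at or below background on all 16 arrays. Their raised values, all -0.22, are differences of the background itself between treatments. Most raised signals of Olfr1475 (-0.34) are that background too, so its p is no evidence of a change. Single pools moved several of the values as deposited. Without odor pool 4 Olfr1447 stood at 0.49 and Olfr1475 at -0.45, and without vehicle pool 2 Olfr1489 stood at 0.55. Olfr1448 stood at -0.01 ± 0.25 in this fraction. With signals as deposited the count was 2 without odor pool 4, 3 without vehicle pool 2 and 11 without vehicle pool 4. With the replicate number as a block it was 13, and 15 of the 19505 genes but no member passed the adjusted threshold. The smallest p in that fit belonged to Olfr1489 (limma, adjusted p = 0.134), followed by Olfr1451 (adjusted p = 0.184).

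Genes of the neurons' own machinery were set beside the receptors. Of 18 mature neuron genes 9 were lower and 0 higher in vehicle arrays titled GFP+ (median -0.28), and 10 were lower and 0 higher after odor (median -0.24), but 5 and 7 were higher and 2 and 2 lower where arrays were centred on these genes themselves. The largest difference was that of Kcnmb3, a regulatory subunit of a potassium channel (-1.53 in vehicle and -1.54 after odor), followed by Pde1c, a calmodulin-dependent phosphodiesterase of the cilia (-0.81 and -0.80), and both stayed lower under each scaling tried. Of 19 genes tied to receptor choice 3 were higher and 5 lower in vehicle, and 2 were higher and 6 lower after odor, counts that depended on scaling (1 higher and 15 lower in vehicle after median centring, 12 higher and 0 lower after centring on mature neuron genes). Lbr, the lamin B receptor, whose loss from the nuclear envelope goes with receptor choice, was higher under each scaling (1.89 and 1.99 as deposited). The part of cells other than mature neurons in the values of Lbr and of both lists was not tested. Lhx2 and its partner Ldb1, which bind receptor enhancers, passed in neither treatment as deposited. In the difference between treatments 0 genes of either list passed, and 0 had an unadjusted p under 0.05 (limma).

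Lhx2 binds receptor promoters and enhancers at homeodomain sites with the core TAATTA. These letters, which read the same on both strands, were searched in the 300 bases from 250 before to 50 after the annotated start. TAATTA was found in 13 of 55 members (23.6%), beside 18.3% of 889 windows of other Olfr genes and 5.29% of all 32851 windows. Of these 13 members 4 were higher, 5 lower and 4 not past the threshold in vehicle. For the 47 members whose annotated start is the start codon, this window may lie away from the start of transcription. A match describes letters in a window and is not a binding site. Olfr1434 and Olfr1437, of the 8 members whose annotated start is not the start codon, are printed because both were far higher in arrays titled GFP+ and each window holds TAATTA, at -158 and at -3 from the start. They were chosen after their values and windows were seen. Of the same 8, Olfr1496 also holds TAATTA and passed in neither treatment. The rest of the 8 lack it: Olfr1442, Olfr1426 and Olfr1477 were higher (4.24, 3.14 and 2.52 in vehicle), and Olfr1419 and Olfr1443 were lower (-2.55 and -3.28). TAATTA is in capitals.
Olfr1434 (chr19:12279604-12279903, plus strand): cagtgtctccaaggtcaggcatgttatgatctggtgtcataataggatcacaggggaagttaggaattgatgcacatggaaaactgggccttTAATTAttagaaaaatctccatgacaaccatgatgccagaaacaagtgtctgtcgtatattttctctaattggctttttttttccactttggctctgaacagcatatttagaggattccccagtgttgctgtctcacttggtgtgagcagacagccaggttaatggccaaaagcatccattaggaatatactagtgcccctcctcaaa
Olfr1437 (chr19:12325017-12325316, minus strand): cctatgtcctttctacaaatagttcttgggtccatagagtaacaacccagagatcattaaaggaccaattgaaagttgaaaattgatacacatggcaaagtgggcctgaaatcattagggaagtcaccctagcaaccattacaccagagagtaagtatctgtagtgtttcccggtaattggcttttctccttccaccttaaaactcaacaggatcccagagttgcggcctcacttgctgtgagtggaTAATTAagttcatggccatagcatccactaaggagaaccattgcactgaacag

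These windows, of build GRCm38.p6, were equal at 71.2% of 281 aligned bases, while the median over 1485 pairs of member windows was 56.2%, and 19 pairs were more alike.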

How the data were processed

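The 16 arrays were Affymetrix arrays of labelled cRNA from 50 to 100 ng of RNA, per the labels' protocols. The authors deposited log2 signals. The submitters' processing notes name Affymetrix Expression Console, with no version. The normalization is not given in the sources used here. Their log2 scale was read from the values. Unequal cell composition or RNA input between fractions would act on these signals through that normalization. The table held 28846 features. A platform annotation gave 19572 of them 1 gene symbol and 0 several, and the brightest feature of a gene was kept, which left 19505 genes. All 58 members matched a RefSeq gene table of GRCm38.p6, used for their order. Columns of other samples numbered 0. No filter on dim genes was set, and 5222 negative control features gave the background.

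Groups, pools and replicate numbers came from the titles, and replicates are separate pools of mice. The smallest SD of log2 differences between 2 arrays was 0.359, so no 2 were duplicates. limma 3.58.1 in R 4.3.3 (lmFit, eBayes with trend, two-sided) was run on the 16 arrays together. For fraction differences, and for how they differed by treatment, the pool was a fixed block (6 residual degrees of freedom). For odor against vehicle within a fraction, the pool was a random block (correlation 0.164, 12 residual degrees of freedom). P-values were adjusted by Benjamini-Hochberg over all 19505 genes, threshold 0.05. The scripts were tested on simulated data.

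The members and lists were chosen with earlier results of these data known. Named were Olfr1448, the 10 largest differences in each direction past the threshold with 1 sign in all 4 pools, the 5 smallest p elsewhere, and their neighbours. Protein sequences were not used here, so the rule's pairs of like proteins were replaced, after the files were seen, by pairs of like coding starts; other members named, such as Olfr1502, were picked with their values known. Alignments used Biopython 1.88. Alternatives were 3 scalings, a dim-gene filter, the mean of a gene's features, no trend, other blocks, leaving out each pool and, chosen after seeing the data, raising each signal below its array's negative control median to that median.

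Whether replicate numbers pair odor with vehicle pools was checked by correlating each array's deviations from its group mean. Same-numbered arrays gave 0.198 to 0.279 where titled GFP- (4 of 4 over 0.1) and 0.0787 to 0.410 where titled GFP+ (3 of 4). The 2 fractions of a pool gave 0.116 to 0.192 in odor pools and 0.136 to 0.341 in vehicle pools. These values do not settle whether the number pairs the pools in either fraction. The main fits had no block for it, and fits with that block were run as an alternative.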

Additional observations from a re-analysis of the deposited data

Results flagged for a closer look

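In 108 sets of 4 arrays (the members named for their differences, by group), 2 members had an array far from the other 3 by Dixon's criterion, which chance gives in about 1 of 20 sets. Olfr1446 read 3.82 in the odor array titled GFP- of pool 3, beside 5.74 to 6.09 in the others. Olfr1489 read 4.59 in the vehicle array titled GFP- of pool 2, beside 5.94 to 6.08. In both cases the low array is at or below background.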

How the results depend on the processing

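All counts of members past the threshold stayed within 1.5 times the reported ones under every alternative run. For vehicle pools the count ran from 41 to 48 and for odor pools from 43 to 52; leaving out 1 pool gave 43 to 45 and 43 to 45. Median centring, which moved the median of all genes from -0.14 to -0.51 in vehicle, gave 20 higher and 26 lower members, and 21 and 31 after odor. Centring on mature neuron genes moved it to 0.22 and gave 28 higher and 20 lower in vehicle. In the other comparisons 0 members passed under every alternative, with 5 to 13, 2 to 13 and 5 to 10 at an unadjusted p under 0.05 (difference between treatments, titled GFP-, titled GFP+). For Olfr1448 the adjusted p ran from 0.589 to 1.00 for the difference between treatments and from 0.0602 to 0.999 in arrays titled GFP+. With the replicate number as a block 0 members passed in the difference between treatments and in either fraction, so it changed no member's call. The odor minus vehicle value of Olfr1448 in arrays titled GFP-, -0.01, ran from -0.13 to 0.17 when 1 pool was left out and changed sign in 3 of these fits, to 0.17 without odor pool 1, 0.02 without vehicle pool 1 and 0.11 without vehicle pool 2; the cause was not tested. Raising each signal below its array's background to it, an alternative chosen after seeing the data, gave 43 members in vehicle (42 of the reported ones), 47 after odor and 5 at an unadjusted p under 0.05 for the difference between treatments. It turned the difference of Olfr1465, which lay at or below background on all 16 arrays, from -0.72 to 0.053. The filter on dim genes left 53 members. Signals at background limit what can be said of 17 members that lay there in at least 1 whole group, and 4 pools per treatment limit the precision of every value.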
